A study of Homo sapiens with 4 samples.

Results

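The Notch pathway was described here through 10 genes in HLE, an established cell line from a human hepatocellular carcinoma: the receptor genes NOTCH1, NOTCH2 and NOTCH3, the ligand genes JAG1 and JAG2, the repressor genes HES1, HES4, HEY1 and HEY2, and the feedback gene NRARP. The genes were taken by name, in a choice made with earlier results of these data known, from the 20286 Ensembl identifiers of each count file. RNA was sequenced from 2 cultures of HLE cells stably carrying an empty vector (Vector) and 2 cultures stably expressing CYR61 (CYR61), the secreted matrix protein now named CCN1. Both groups were grown in the same serum-containing medium with no further treatment, and the single contrast of the design sets CYR61 against Vector. The replicates are described as separate cultures of each whole stable population, so p-values reflect variation among cultures, not among lines made anew.

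Notch receptors are single-pass membrane proteins that bind Jagged or Delta-like ligands on a neighbouring cell. Binding allows an ADAM protease and then gamma-secretase to cut the receptor, and the released intracellular domain enters the nucleus, joins the DNA-binding protein RBPJ and a Mastermind co-activator, and turns on genes such as those of the HES and HEY families. In the liver the pathway is best known for directing progenitor cells towards the bile duct lineage, in which JAG1 and NOTCH2 take part.

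The 4 libraries held between 16186988 and 21588822 estimated counts. CYR61 itself, the check of the labels, stood at 222 and 218 CPM (counts scaled to equal library totals) under Vector, against 8091 and 8620 CPM under CYR61. Of 10 hepatocyte markers, 8 were under 1 CPM in every library, and ALB, APOB, TTR and GPC3 had no count in any of them. Not all 10 were absent, and together they summed to 7.11 and 5.35 CPM under Vector against 4.79 and 4.76 CPM under CYR61. The epithelial keratin genes KRT8 and KRT18 were at 1055 CPM or more in each library, while the epithelial adhesion genes EPCAM (0.319 to 1.36 CPM) and CDH1 (1.04 to 2.6 CPM) were near the floor. Of the other markers, PTPRC of leukocytes, PECAM1 of endothelium and COL1A2 of fibroblasts were at most at 0.0531 CPM, whereas COL1A1 was at 22.9 to 31 CPM and the macrophage marker CD68 at 48.1 to 67.2 CPM. Vector 1 and CYR61 2 stood apart from Vector 2 and CYR61 1 by base composition. The log2 difference of Vector 2 from Vector 1 had a Spearman's rho of -0.75 with transcript GC content over 10364 genes, and that of CYR61 1 from CYR61 2 one of -0.80. These are correlations across genes of the same libraries, and genes are not independent replicates.

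Promoters are described first, and those of HES1, HES4 and HEY2 are shown because their windows held the letters searched for. The table of RefSeq promoters used here (GRCh38.p14) was matched for 9 of the 10 genes, all but HEY1. The 250 bases before each RefSeq start were searched on both strands for TGGGAA, the core letters of the site that RBPJ binds. The letters were found in HES1, HES4 and HEY2 and not in the windows of NOTCH1, NOTCH2, NOTCH3, JAG1, JAG2 or NRARP. Among 34943 promoter windows of the same length, 20.9% held the core at least once and 2.89% held it 2 or more times. HES1 held it 2 times on the printed strand, at -84 to -79 and at -70 to -65 from the start, with 8 bases between them. HES4 held it once, at -76 to -71, and HEY2 once on the other strand, at -213 to -208. The 7-letter form GTGGGAA, which contains the core, was in 5.41% of all windows and occurred once each in HES1, HES4 and HEY2. The RefSeq starts of HES1, HES4, HEY2 and JAG2 lie inside the spans that GENCODE 29 gives these genes. Parts of the HES1, HES4 and JAG2 windows therefore fall within the genes. The HEY2 window, with its match, falls wholly within the gene by that annotation, which starts HEY2 at 125747664. A match of letters is a description of the window and not evidence of binding.

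The windows of the 3 genes with a match, and that of JAG1 as the ligand gene whose RNA fell, are printed 5′ to 3′ on the strand of the gene, with capitals marking TGGGAA or its reverse complement TTCCCA.
HES1 (chr3:194135898-194136147, plus strand): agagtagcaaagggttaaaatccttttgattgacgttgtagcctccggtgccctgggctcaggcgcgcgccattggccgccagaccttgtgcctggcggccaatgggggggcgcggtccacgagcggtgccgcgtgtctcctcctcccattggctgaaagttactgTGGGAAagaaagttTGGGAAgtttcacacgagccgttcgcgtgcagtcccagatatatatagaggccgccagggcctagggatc
HES4 (chr1:1000098-1000347, minus strand): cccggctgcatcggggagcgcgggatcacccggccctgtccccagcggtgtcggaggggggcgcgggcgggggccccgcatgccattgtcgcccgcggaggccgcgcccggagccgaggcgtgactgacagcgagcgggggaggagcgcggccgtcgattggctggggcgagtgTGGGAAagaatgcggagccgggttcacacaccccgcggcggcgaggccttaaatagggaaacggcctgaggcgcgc
HEY2 (chr6:125749382-125749631, plus strand): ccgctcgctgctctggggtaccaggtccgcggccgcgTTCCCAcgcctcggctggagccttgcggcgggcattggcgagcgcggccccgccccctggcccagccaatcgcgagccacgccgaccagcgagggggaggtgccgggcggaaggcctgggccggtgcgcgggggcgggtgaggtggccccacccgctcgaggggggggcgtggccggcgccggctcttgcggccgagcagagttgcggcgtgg
JAG1 (chr20:10674000-10674249, minus strand): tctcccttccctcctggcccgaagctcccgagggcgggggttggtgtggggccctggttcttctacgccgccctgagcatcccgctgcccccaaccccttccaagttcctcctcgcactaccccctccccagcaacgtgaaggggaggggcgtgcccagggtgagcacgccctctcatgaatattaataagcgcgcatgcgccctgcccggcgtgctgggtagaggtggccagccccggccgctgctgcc

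HES and HEY proteins are themselves DNA-binding repressors, and their own sites were searched in the same windows. The N-box CACNAG was found 3 times in HES1 and once in NOTCH3, against 32.1% of all windows with at least 1 match and 6.33% with 2 or more. The class C E-box CACGCG was found 2 times in HES1 and once in JAG2, against 9.71% of all windows. The class B E-box CACGTG was in none of the 9 windows and in 6.32% of all windows. HES1 was the only one of the 9 windows that held both RBPJ core letters and repressor site letters.

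Expression of HES1, HEY1 and JAG1 was lower in CYR61-expressing cells, by 2.58-fold, 2.25-fold and 1.72-fold. No gene of the 10 was called higher by edgeR's quasi-likelihood test (adjusted p below 0.05 over all 12698 genes tested), and 7 were not called. HEY2 ran the other way from HEY1 with a fold of 2.29 that missed the threshold. The receptor genes, the most abundant of the 10 by CPM, were not called. All 10 passed the filter on low counts. The 3 lower genes of 10 stand beside 4.56% of all tested genes called lower, and the 0 higher genes beside 1.83%. HEY2, NOTCH3 and HES4 had an unadjusted p under 0.05 without being called, a level that 22.9% of all tested genes passed, called genes included. The median log2 fold change, CYR61 minus Vector, was -0.28 over the 10 genes and -0.01 over all genes tested. The 10 genes were chosen with earlier results of these data known, so neither the counts of calls nor this median is independent evidence. The CPM values of the 2 groups did not overlap in 7 of the 10 genes, 5 lower and 2 higher. Such separation was found in 51.5% of all tested genes, below Vector in 27.7% and above it in 23.9%. In bulk RNA, fewer cells expressing a gene and less of its RNA per cell cannot be told apart.

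**Figure D1:**
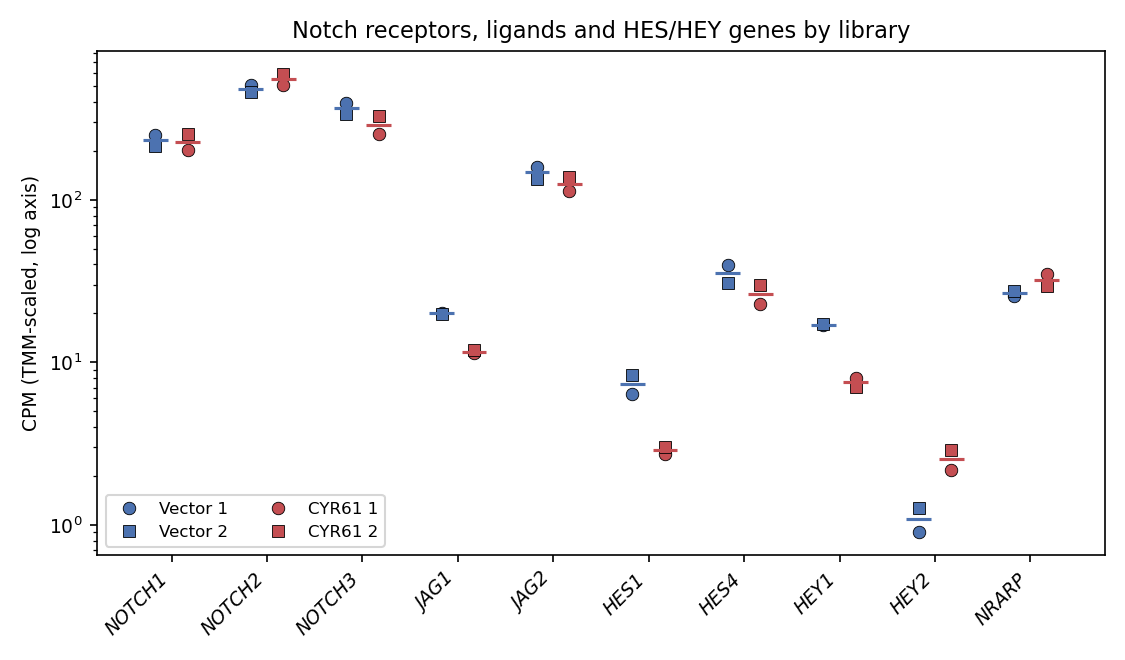
CPM of the 10 Notch genes in each library, on a log axis, with blue marks for Vector and red for CYR61, circles for replicate 1 and squares for replicate 2, and short lines at the means of 2 libraries. JAG1, HES1 and HEY1 are lower in both CYR61 libraries, HEY2 is higher, and NOTCH1, NOTCH2 and JAG2 overlap between groups.

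NOTCH1 (ENSG00000148400, hg38 chromosome 9, 136494433 to 136545786, minus strand) encodes a broadly expressed receptor. It was at 252 and 215 CPM in Vector 1 and 2 and at 203 and 253 CPM in CYR61 1 and 2. The groups overlapped fully, with CYR61 libraries at both ends of the range. Its log2 fold change was -0.04 (SE 0.14, 95% interval -0.34 to 0.27, edgeR adjusted p = 0.908). Its sign was not stable, at 0.08 without Vector 1, 0.13 without CYR61 1 and 0.07 once each library's trend on GC content was removed.

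NOTCH2 (ENSG00000134250, chromosome 1, 119911553 to 120069626, minus strand) encodes the receptor most closely tied to bile duct development. It was at 507 and 459 CPM in Vector and at 505 and 596 CPM in CYR61 cells. CYR61 2 was the highest library and the other CYR61 library lay within the Vector range. The log2 fold change was 0.19 (SE 0.12, 95% interval -0.08 to 0.46, edgeR adjusted p = 0.384). NOTCH2 has near-identical partial copies, NOTCH2NLA, NOTCH2NLB, NOTCH2NLC and NOTCH2NLR, among which reads may have been divided, and its counts were not whole numbers in any library. Summed over NOTCH2 and these copies, which are separate genes, the level was 569 and 511 CPM in Vector and 558 and 658 CPM in CYR61 cells. The log2 fold change of the sum was 0.17 (edgeR adjusted p = 0.437).

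NOTCH3 (ENSG00000074181, chromosome 19, 15159038 to 15200981, minus strand) encodes a receptor best known in vascular smooth muscle and pericytes. It was at 396 and 336 CPM in Vector and at 253 and 327 CPM in CYR61 cells. Both CYR61 libraries lay below both Vector libraries, but CYR61 2 came close to Vector 2. The log2 fold change was -0.34 (SE 0.14, 95% interval -0.66 to -0.02, unadjusted p = 0.0397, edgeR adjusted p = 0.193). NOTCH3 was called without CYR61 2 (log2 fold change -0.53, edgeR adjusted p = 0.0366), where 10.2% of all genes were called in either direction, and with the GC trend removed (-0.23, edgeR adjusted p = 0.0227). Without CYR61 1 the value was -0.15 and without Vector 1 it was -0.22. The ratio of NOTCH3 to NOTCH1 per kb of exon was 1.74 and 1.73 for the Vector cultures as against 1.38 and 1.43 for the CYR61 cultures, a description that was not tested.

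JAG1 (ENSG00000101384, chromosome 20, 10637684 to 10673999, minus strand) encodes a ligand that is needed for bile duct formation. It was at 20.1 and 19.98 CPM in Vector and at 11.4 and 11.8 CPM in CYR61 cells. The cultures of each group lay close together and the groups were well apart. JAG1 fell by 0.78 on the log2 scale (SE 0.16, 95% interval -1.14 to -0.43, edgeR adjusted p = 0.0179), from 20.05 ± 0.101 to 11.6 ± 0.281 CPM (mean ± SD, n = 2 each). Without Vector 1 the change was -0.78 and missed the threshold (edgeR adjusted p = 0.0558), in an analysis that called 3.71% of all genes in either direction. Its exons share 79 bases with an antisense model that has no row in the count files.

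JAG2 (ENSG00000184916, chromosome 14, 105140981 to 105168824, minus strand) encodes the second Jagged ligand. It was at 160 and 134 CPM in Vector and at 113 and 138 CPM in CYR61 cells. CYR61 2 lay above Vector 2, so the groups overlapped. For JAG2 the log2 change was -0.23 (SE 0.14, 95% interval -0.54 to 0.08, edgeR adjusted p = 0.361). Per kb of exon, JAG2 RNA was 11.6 and 9.78 times JAG1 RNA in the Vector libraries and 14.4 and 17 times with CYR61. JAG2 shares 469 exonic bases with a non-coding model on its own strand that has no row in the files, so its level is uncertain to that extent.

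HES1 (ENSG00000114315, chromosome 3, 194136145 to 194138732, plus strand) encodes the repressor used most often as a readout of Notch activity, and its promoter holds the pair of RBPJ core matches printed above. Its estimated counts were 120 and 185 under Vector against 59 and 48 under CYR61, or 6.37 and 8.38 CPM against 2.75 and 3.01 CPM. Each CYR61 library was below the lower Vector library. HES1 fell by 1.36 on the log2 scale (SE 0.24, 95% interval -1.90 to -0.83, edgeR adjusted p = 0.00896), from 7.38 ± 1.42 to 2.88 ± 0.186 CPM (mean ± SD, n = 2 each). It was called in all 17 alternative analyses, with log2 fold changes from -1.55 to -1.14.

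HEY1 (ENSG00000164683, chromosome 8, 79764010 to 79767863, minus strand) encodes a related repressor. It was at 17.0 and 17.1 CPM in Vector and at 8.05 and 7.08 CPM in CYR61 cells. The Vector cultures were almost equal and both CYR61 cultures were under them by a wide margin. HEY1 fell by 1.17 on the log2 scale (SE 0.17, 95% interval -1.56 to -0.79, edgeR adjusted p = 0.00365), from 17.1 ± 0.0586 to 7.56 ± 0.685 CPM (mean ± SD, n = 2 each). This was the smallest adjusted p of the 10 genes, and HEY1 was called in all 17 alternatives (-1.26 to -1.08).

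HEY2 (ENSG00000135547, chromosome 6, 125747664 to 125761269, plus strand) encodes the HEY repressor known from heart and artery development. Its estimated counts were 17 and 28 under Vector against 47 and 46 under CYR61, or 0.903 and 1.27 CPM against 2.19 and 2.88 CPM. Both CYR61 libraries were above both Vector libraries, at a level that gives few counts. The log2 fold change was 1.20 (SE 0.35, 95% interval 0.42 to 1.97, unadjusted p = 0.00628), and the edgeR adjusted p of 0.0719 missed the threshold. HEY2 was called without a filter on low counts (edgeR adjusted p = 0.0165, with 10.4% of all genes called) and with the GC trend removed (edgeR adjusted p = 0.0224), but not by DESeq2 (adjusted p = 0.166). The ratio of HEY1 to HEY2 per kb of exon was 16 and 11.5 for the Vector cultures as against 3.12 and 2.08 for the CYR61 cultures. The ratio was thus lower in both CYR61 libraries, and HEY1 stayed the more abundant of the pair in each library.

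HES4 (ENSG00000188290, chromosome 1, 998962 to 1000172, minus strand) encodes a further HES repressor, and its promoter holds 1 RBPJ core match. It was at 40.0 and 30.7 CPM in Vector and at 22.7 and 30.0 CPM in CYR61 cells. The groups did not overlap, but Vector 2 and CYR61 2 were nearly equal. The log2 fold change was -0.43 (SE 0.18, 95% interval -0.84 to -0.02, unadjusted p = 0.043, edgeR adjusted p = 0.201). HES4 was called without CYR61 2 (-0.64, edgeR adjusted p = 0.03) and also once the GC trend was removed (-0.31, edgeR adjusted p = 0.0299). The value was -0.22 both without Vector 1 and without CYR61 1.

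NRARP (ENSG00000198435, chromosome 9, 137300482 to 137302251, minus strand) encodes an ankyrin-repeat protein that is induced by Notch and limits it by binding the nuclear complex. It was at 25.6 and 27.5 CPM in Vector and at 35.0 and 29.5 CPM in CYR61 cells. Both CYR61 libraries were above both Vector libraries, and CYR61 2 only slightly so. For NRARP the log2 change was 0.28 (SE 0.15, 95% interval -0.05 to 0.62, edgeR adjusted p = 0.3). It was 0.16 without CYR61 1 and reached 0.41 once the GC trend was removed (edgeR adjusted p = 0.0714).

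Base composition moved with the spread of some of these genes. The transcripts of 5 of the 10 had a GC content above 60%: NOTCH1 (63.7%), NOTCH3 (63.1%), JAG2 (64%), HES4 (74.2%) and NRARP (67.3%). In 4 of these 5, Vector 1 was above Vector 2 and CYR61 2 above CYR61 1, and NRARP ran the opposite way in both groups. NOTCH2 (GC 47.8%) and JAG1 (50.6%) had the same order of libraries, with gaps of 0.14 and 0.24 for NOTCH2 and of 0.01 and 0.05 for JAG1 on the log2 scale. Among the 5 the largest gap was in HES4, at 0.38 on the log2 scale between the Vector and 0.40 between the CYR61 libraries. JAG1, HES1 and HEY1, the 3 called genes, had a GC content of 50.6%, 50.7% and 49.2%. With the GC trend removed, their log2 fold changes were -0.76, -1.35 and -1.15, as against -0.78, -1.36 and -1.17. In that analysis 5 of the 10 were called lower and HEY2 was called higher, beside 13.9% of all tested genes called lower and 15.8% called higher.

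**Figure D2:**
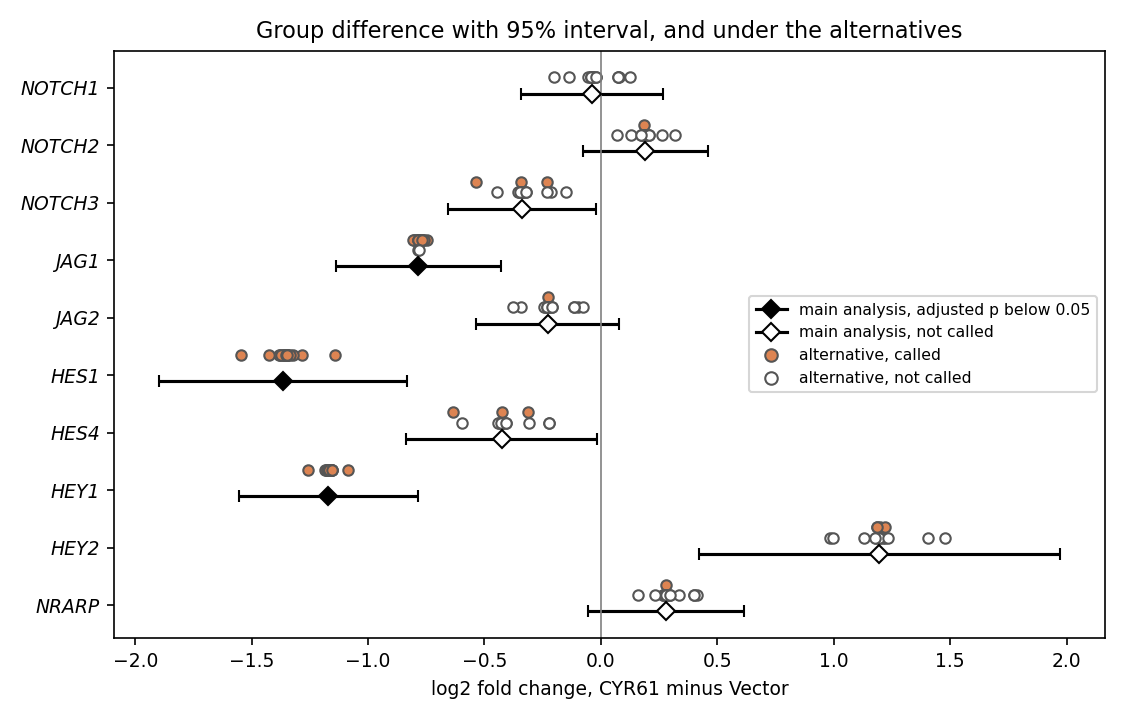
Log2 fold change of each of the 10 genes, CYR61 minus Vector, with diamonds and bars for the edgeR estimate and its 95% interval (filled where the adjusted p is below 0.05) and circles above them for the alternative analyses, orange where called. HES1 and HEY1 have orange circles only, JAG1 mostly, and NOTCH1 has circles on both sides of 0.

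Per exon length, the genes fell into an upper and a lower tier. In Vector cells NOTCH3 was highest at 39.0 CPM per kb of exon, followed by HES4 (31.6), NOTCH2 (28.7), JAG2 (23.0), NOTCH1 (22.5) and NRARP (15). HEY1 (5.28), HES1 (3.58), JAG1 (2.16) and HEY2 (0.396) followed well below. By this scale NOTCH3 was above 90.9% of all tested genes and HEY2 above 8.4%. HES4 and NOTCH2 overlapped between libraries, as did JAG2 and NOTCH1, and the higher HES4 library (35.75 CPM per kb) lay just under the lower NOTCH3 library (35.8). The remaining neighbours in this order were further apart.

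In CYR61 cells the order of the upper tier was closer. NOTCH2 (32.8 CPM per kb) and NOTCH3 (30.9) overlapped, and so did each neighbour from HES4 (23.6) through NOTCH1 (21.9) and JAG2 (19.7) to NRARP (18.2). In the lower tier the order was the same as in Vector cells, HEY1 (2.34), HES1 (1.4), JAG1 (1.25) and HEY2 (0.925), and no neighbours overlapped. The summed level of HES1, HES4, HEY1 and HEY2 was 44.5 and 37.3 CPM per kb under Vector against 24.9 and 31.5 under CYR61, of which HES4 was the larger part. The summed level of the 3 receptor genes was 96.6 and 83.9 under Vector against 76.5 and 94.6 under CYR61, so that the groups overlapped.

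**Figure D3:**
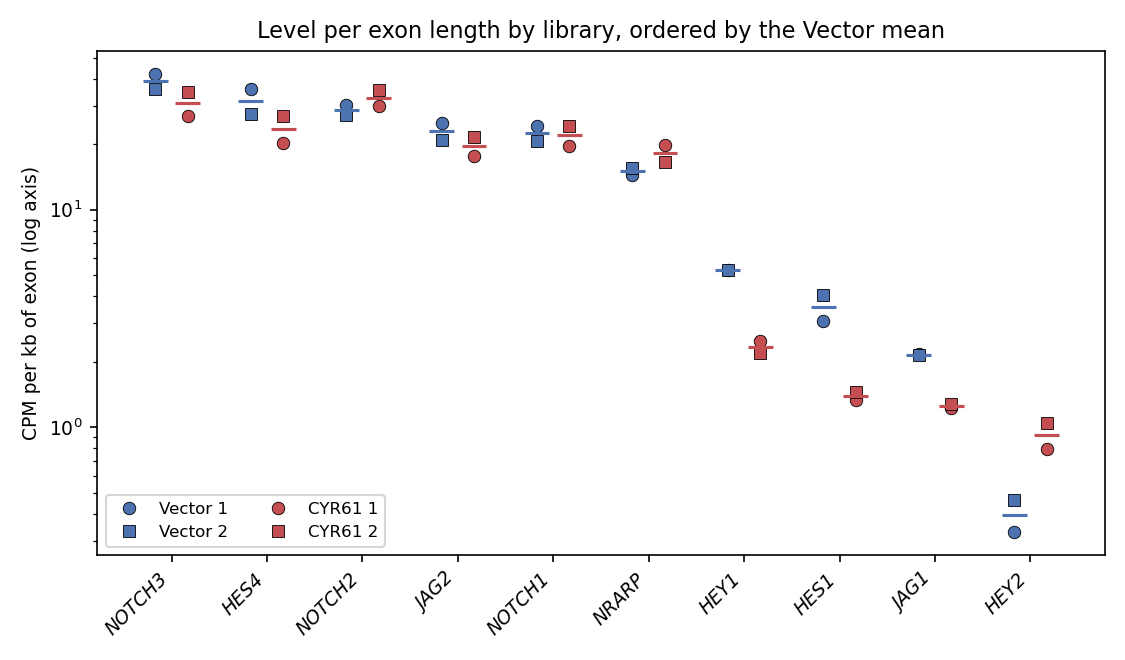
Level of each gene in CPM per kb of exon, on a log axis, ordered by the Vector mean, with blue for Vector, red for CYR61, circles for replicate 1, squares for replicate 2 and short lines at the means. The upper tier from NOTCH3 to NRARP lies between 14.5 and 42.2 CPM per kb, and the lower tier from HEY1 to HEY2 at 5.3 or less.

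The rest of the pathway was counted from a list of 78 further genes, of which 68 were tested, in the same fit across all genes. Of these 68, 2 were called higher and 5 lower, beside 6.39% of all tested genes called in either direction, and the median log2 fold change was -0.07. Of the 5 lower genes, CDKN1A and SNAI2 were known to be lower in these libraries when the list was made, so the count is not independent evidence. Removing the GC trend gave 12 higher and 12 lower genes of the 68, beside 29.7% of all genes called in either direction. The called genes were spread over 3 roles: ubiquitination and endocytosis, co-repressors, and other genes described as Notch targets.

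Among other receptors and ligands, 4 of 7 genes were tested and none was called, and by edgeR 2 of the 4, DLL4 and DLK2, had an unadjusted p under 0.05, beside 22.9% of all tested genes. DLL4, the Delta-like ligand of sprouting vessels, had 13 and 25 estimated counts under Vector against 5 and 4 under CYR61. Its log2 fold change was -1.91 (SE 0.57), and the edgeR adjusted p of 0.0787 missed the threshold. DLL3, which encodes a ligand that acts within the same cell, was level at 6.05 and 5.89 CPM against 5.16 and 6.33 CPM (-0.06, edgeR adjusted p = 0.898). NOTCH4 had 0 and 5 counts under Vector against 4 and 1 under CYR61, and DLL1 had 0 and 2 against 1 and 0, so neither was tested.

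Of 6 maturation and glycosylation genes and 8 cleavage genes, all were tested and none was called. At an unadjusted p under 0.05 by edgeR there were 2 genes in the first list, MFNG and LFNG, and 1 in the second, beside the same 22.9% of all genes. MFNG, a Fringe glycosyltransferase gene that modifies Notch, had the smallest p of its list at 0.956 and 1.04 CPM in Vector and 0.372 and 0.439 CPM in CYR61 cells (log2 fold change -1.304, SE 0.48, edgeR adjusted p = 0.132). PSEN2, a catalytic subunit gene of gamma-secretase, had the smallest p among cleavage genes, at 16.03 and 15.4 CPM against 20.4 and 20.3 CPM. Both CYR61 libraries were higher, by 0.38 on the log2 scale (SE 0.15, edgeR adjusted p = 0.179) that was called with the GC trend removed (0.45, edgeR adjusted p = 0.0101).

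Ubiquitination and endocytosis genes had 14 of 15 members tested, with 1 lower and 1 higher, beside 4.56% and 1.83% of all tested genes. NEURL1B, a ubiquitin ligase gene whose product acts on Notch ligands, was at 5.36 and 4.94 CPM in Vector and 2.09 and 2.07 CPM in CYR61 cells. It fell by 1.303 on the log2 scale (SE 0.25, edgeR adjusted p = 0.0131) and was called in all 17 alternatives. DTX4, a Deltex ubiquitin ligase gene, was at 13.6 and 12.1 CPM against 20.7 and 21.1 CPM. It rose by 0.70 (SE 0.16, edgeR adjusted p = 0.0313), and the call was lost when Vector 1 was left out (edgeR adjusted p = 0.0668) and when Vector 2 was (edgeR adjusted p = 0.179, with 4.91% of all genes called).

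In the nuclear activation complex, 9 of 9 genes were tested and none was called, with 2, KAT2A and EP300, at an unadjusted p under 0.05 by edgeR, beside 22.9% of all genes. RBPJ, the DNA-binding protein of the pathway, was at 26.1 and 35.0 CPM in Vector and 35.7 and 22.9 CPM in CYR61 cells. The groups overlapped, and the log2 change was -0.05 (SE 0.22, edgeR adjusted p = 0.916) whose sign turned without Vector 2 (0.18) or without CYR61 2 (0.23). KAT2A, a histone acetyltransferase gene, had the smallest p of the list at 157 and 145 CPM against 183 and 208 CPM (0.38, SE 0.12, edgeR adjusted p = 0.092). It was called with the GC trend removed (0.47, edgeR adjusted p = 0.000305).

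All 16 co-repressor genes were tested, and 2 members of the TLE family, the Groucho proteins that HES proteins recruit, were called in opposite directions. Over all tested genes, 4.56% were called lower and 1.83% higher. TLE2 was at 14.9 and 12.9 CPM in Vector and 6.14 and 6.01 CPM in CYR61 cells. It fell by 1.19 on the log2 scale (SE 0.18, edgeR adjusted p = 0.0048) and was called in all 17 alternatives. TLE4 was at 15.3 and 18.3 CPM against 29.3 and 30.4 CPM. It rose by 0.83 (SE 0.16, edgeR adjusted p = 0.0135), a call that was lost without Vector 1 (0.71, edgeR adjusted p = 0.096). TLE4 shares 253 exonic bases with a pseudogene model on its strand that has no row in the files. TLE1, TLE3 and TLE5 had log2 fold changes of 0.02, -0.15 and 0.08 and were not called. By edgeR, NCOR1 (-0.29) had an unadjusted p under 0.05 without being called, beside 22.9% of all tested genes at that level. SPEN, the co-repressor that binds RBPJ directly, was at 287 and 304 CPM against 288 and 305 CPM.

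Of the 7 other HES/HEY genes, 3 were tested and none was called, and by edgeR none had an unadjusted p under 0.05. HES6 had the smallest p, at 4.57 and 4.21 CPM in Vector and 2.98 and 3.51 CPM in CYR61 cells (change of -0.44 on the log2 scale, edgeR adjusted p = 0.307). HES2 (0.17) and HES7 (0.16) were the others. HES3 and HELT had 0 counts in the 4 libraries, HES5 had at most 1 and HEYL at most 5.

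Of 10 other genes described as Notch targets, 8 were tested, and 3 were called lower, beside 4.56% of all tested genes. These genes also answer to many other signals, and 2 of the 3 are the genes known beforehand, CDKN1A and SNAI2. CDKN1A, the p21 cell cycle inhibitor gene, was at 86.4 and 82.5 CPM against 26.1 and 25.9 CPM (change of -1.70 on the log2 scale, edgeR adjusted p = 0.000103). SNAI2, which encodes a repressor of epithelial genes, was at 13.8 and 14.2 CPM against 4.98 and 6.08 CPM (-1.35, edgeR adjusted p = 0.00271). SOX9, a bile duct and progenitor transcription factor gene that also stood in the bile duct marker list, was at 11.2 and 9.83 CPM in Vector and 5.44 and 4.32 CPM in CYR61 cells. It fell by 1.10 on the log2 scale (SE 0.21, edgeR adjusted p = 0.0124) and was called in all 17 alternatives. Among other bile duct markers, KRT19, SPP1 and CFTR were under 1 CPM in every library. KRT7 was at 1118 and 918 CPM under Vector against 726 and 865 CPM under CYR61 and was not called, and its part in the SOX9 result was not tested. CCND1 (0.09) and MYC (-0.26) were not called. By edgeR, NFKB2 (-0.37), IGF1R (-0.30) and MYC had an unadjusted p under 0.05 without being called, beside 22.9% of all tested genes at that level.

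**Figure D4:**
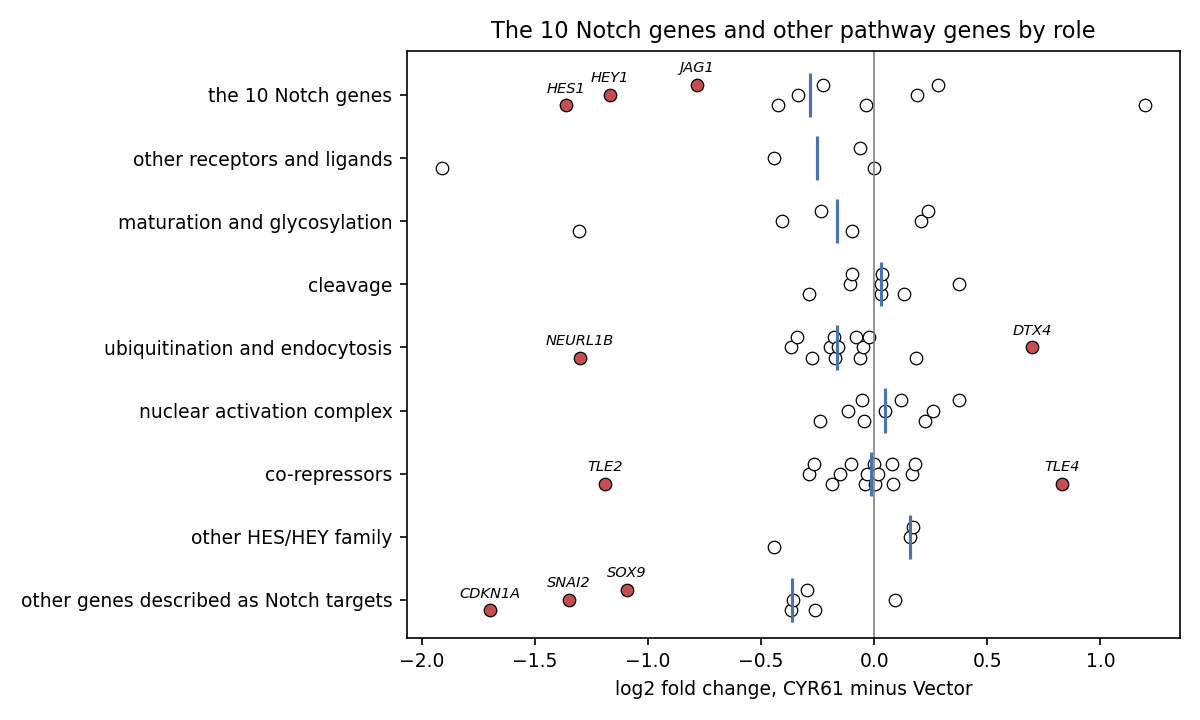
Log2 fold change, CYR61 minus Vector, of the 10 Notch genes and of the 68 other tested pathway genes, in rows by role, each circle a gene, red with its name where the edgeR adjusted p is below 0.05, and the blue line the median of the row. The 7 red circles among the 68 lie on both sides of 0.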

How the data were processed

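The authors deposited expected counts per Ensembl gene in 1 table for each of the 4 HLE libraries. Of these values 11.2% to 12% per library were not whole. The submitters' processing notes name Cuffdiff 1.3.0, Cufflinks 2.2.1 and TopHat2 2.1.1, with build hg38. The sources used here do not give the counting program, the annotation release or the strand setting, so reads of antisense genes cannot be told apart. Symbols were found for 20228 of 20286 identifiers. Positions, exon lengths and GC content came from GENCODE 29.

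Counts were rounded and filtered by filterByExpr (12698 genes kept). The test was edgeR 4.0.16 quasi-likelihood with TMM scaling, run in R 4.3.3 with group as the only term and p-values adjusted by Benjamini-Hochberg over all genes (threshold 0.05). CPM are TMM-scaled. An SE was derived from the F statistic of the test and the size of its log2 fold change. Scripts were tested on simulated data.

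The members and lists were chosen with earlier results of these data known. Named were all 10 members, each called list gene, the gene of smallest p in a list without calls, RBPJ, NOTCH4 and the DLL genes. Other genes were named after their values were seen, and 1 marker gene is not reported here.

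Alternatives changed the tool (DESeq2 1.42.0, limma-voom 3.58.1), the scaling (RLE, upper quartile, library size), the filter (none, or 5 CPM in 2 libraries), the design (replicate block) and the prior count (2). Others left out each library in turn, left CYR61 out of library sizes, or removed a GC trend (spline with 5 degrees of freedom, genes of at least 5 CPM on average), alone or with the block. A crossed block and the sum of NOTCH2 with its copies were added after the data were seen. The prior count of 2 gave HES1, HEY1 and JAG1 the same adjusted p as the main edgeR analysis. Leaving CYR61 out of library sizes hardly moved it, so these alternatives add little to the counts of calls.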

Additional observations from a re-analysis of the deposited data

How the results depend on the processing

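HES1 and HEY1 were called under all 17 alternatives, and JAG1 under 15 of 17, without a call for the replicate block (log2 fold change -0.78, edgeR adjusted p = 0.0905) and without Vector 1. Leaving out 1 library gave 104 to 538 higher and 377 to 793 lower genes in all, 0 higher and 2 to 5 lower among the 10 Notch genes, and 0 to 2 higher and 5 lower among the other pathway genes. Against 232 higher and 579 lower in all, the counts were 648 and 1029 with no filter, where 1 of the 10 was higher, and DESeq2 gave 356 higher. With the GC trend removed they were 2006 and 1766 in all, 1 and 5 of the 10, and 12 and 12 of the other genes. With the GC trend removed and the replicate block they were 1568 and 1436 in all, 1 and 3 of the 10, and 10 and 11 of the other genes, and NOTCH3 (edgeR adjusted p = 0.0669) and HES4 (0.056) were not called. The replicate numbers were not stated to mark a shared batch, and deviations of same-numbered libraries correlated at -0.71 across genes. With the replicate block 53 genes were higher and 338 lower, and 1 of the other pathway genes was higher, DTX4 losing its call (edgeR adjusted p = 0.157). With crossed numbers as the block, a pairing added after the data were seen, the counts were 2748 and 2876 in all, 3 and 6 of the 10, and 12 and 23 of the other genes. The sign turned for NOTCH1 without Vector 1 (0.08), without CYR61 1 (0.13) and once the GC trend was removed, alone or with the block (0.0742 and 0.0739), for RBPJ without Vector 2 (0.18) or CYR61 2 (0.23), and for DLL3 without CYR61 1 (0.10) and once the GC trend was removed, alone (0.0545) or with the block (0.0573). Their lowest values without 1 library were -0.20 for NOTCH1, -0.40 for RBPJ and -0.21 for DLL3. The cause was not tested. HEY2, DLL4 and MFNG had counts under 50 in each library, and the part of depth in their missed calls was not tested.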
